A study of Homo sapiens with 6 samples.

Results

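Expression of 10 genes of inflammatory signalling was followed on 6 Affymetrix arrays of A375 cells, an established human melanoma line with mutated BRAF. The genes were 9 cytokines and chemokines (CXCL8, CXCL1, CXCL2, CXCL3, CCL2, IL1B, IL6, IL11 and LIF) and the receptor TLR4. They were taken by name, with earlier results of these data known, and all 10 were among the 19676 genes measured. Each gene was read from the probe set that names it alone and has the highest mean, with its other probe sets as a check. There were 6 conditions with 1 array each. At 6 h the cells had received the solvent DMSO, 10 µM vemurafenib, 100 nM AT9283, or 10 µM vemurafenib together with 100 nM AT9283 (the combination). At 16 h they had received DMSO or 10 µM vemurafenib. All arrays are of the same cell line without any other alteration named in the labels. Vemurafenib inhibits mutant BRAF, and AT9283 inhibits several kinases, among them Aurora kinases and JAK2. The series title concerns the expression of ATF4, a stress-response factor, in BRAF-targeted therapy.

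With 1 array per condition no difference between single arrays has a replicate check. Levels are log2 intensities. "Fell" and "rose" mark genes over a rule of size: the log2 difference is 1 or larger (2-fold), and log2 6, the floor, is reached on either array. This floor corresponds to an intensity of 64, which between 44.7% and 46.1% of genes reached on each array. No detection calls were used, so the size of a difference whose lower value lies well below log2 6 depends on values near background. The arrays form 3 pairs that share no array and differ by vemurafenib: DMSO and vemurafenib at 6 h, AT9283 and the combination at 6 h, and DMSO and vemurafenib at 16 h. The pairs allowed one fit across genes, reported below.

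CXCL8 (interleukin-8), CXCL1, CXCL2 and CXCL3 are chemokines that attract neutrophils through the receptor CXCR2, and CCL2 attracts monocytes. IL1B encodes a cytokine that induces many of the others, and IL6, IL11 and LIF encode cytokines that signal through the shared receptor chain gp130, the product of IL6ST, to JAK kinases and STAT3. TLR4 senses bacterial lipopolysaccharide and signals through MYD88 and IRAK kinases to the transcription factor NF-κB. Many of these genes carry NF-κB and AP-1 elements near their start, AP-1 being a factor whose subunits are raised by ERK signalling.

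The sequence upstream of the start is shown for the genes with a match to an AP-1 or NF-κB motif. These are CXCL8 and IL11, the related chemokines CXCL1, CXCL2 and CXCL3, and IL6. Promoters came from RefSeq (GRCh38.p14), which matched 8 of the 10 genes, without CCL2 and LIF. The 250 bases before the start were searched on both strands for the NF-κB consensus, of 10 letters, and for the AP-1 motif TGANTCA. The consensus was GGGRNNYYCC, where R is A or G, Y is C or T and N is any base. The last 150 bases before the start are printed 5′ to 3′ on the gene's strand, with matches in capitals. They lie at chr4:73740419-73740568 (plus strand), chr19:55370464-55370613 (minus strand), chr4:73869243-73869392 (plus strand), chr4:74099196-74099345 (minus strand), chr4:74038690-74038839 (minus strand) and chr7:22727050-22727199 (plus strand), all upstream of the first exon.
CXCL8: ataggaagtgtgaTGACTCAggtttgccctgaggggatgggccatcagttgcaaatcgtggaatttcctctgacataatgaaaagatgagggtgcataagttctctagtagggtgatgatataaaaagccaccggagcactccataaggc
IL11: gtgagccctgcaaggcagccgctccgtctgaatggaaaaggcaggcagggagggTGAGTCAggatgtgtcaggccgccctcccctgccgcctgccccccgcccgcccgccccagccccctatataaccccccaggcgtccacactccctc
CXCL1: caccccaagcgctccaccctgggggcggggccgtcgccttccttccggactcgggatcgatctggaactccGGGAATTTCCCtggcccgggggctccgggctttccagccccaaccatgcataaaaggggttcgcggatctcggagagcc
CXCL2: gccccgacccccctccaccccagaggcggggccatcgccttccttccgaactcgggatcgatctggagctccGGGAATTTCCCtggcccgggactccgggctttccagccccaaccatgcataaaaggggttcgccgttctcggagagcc
CXCL3: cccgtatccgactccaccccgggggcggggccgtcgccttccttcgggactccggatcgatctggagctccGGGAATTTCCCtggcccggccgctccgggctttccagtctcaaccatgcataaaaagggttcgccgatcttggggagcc
IL6: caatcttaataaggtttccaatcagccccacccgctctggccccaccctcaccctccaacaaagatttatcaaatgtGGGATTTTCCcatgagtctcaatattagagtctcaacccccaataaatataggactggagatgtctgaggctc

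The AP-1 motif was found in 2 of the 8 promoters, at -137 to -131 in CXCL8 and at -96 to -90 in IL11, and in 6.6% of 27305 promoters. The NF-κB consensus was found in 4 of the 8, CXCL1, CXCL2, CXCL3 and IL6, and in 9.57% of all promoters. In CXCL1 and CXCL3 it matched on both strands at overlapping places, from -79 to -70 and from -78 to -69, and in CXCL2 1 base closer to the start. In IL6 the match ran from -73 to -64. No match to either motif was found in the windows of IL1B and TLR4, which says only that these letters are not there. The same holds for the NF-κB consensus in CXCL8 and IL11. The printed CXCL8 bases hold tggaatttcc, which differs from the consensus in its first letter. Over the aligned columns of the printed bases CXCL1 was 88.8% identical to CXCL2 and 88.1% to CXCL3, and CXCL2 and CXCL3 were 86.3% identical, whereas CXCL8 shared 44.0% to 46.8% with them. Of the genes that fell in all 3 pairs below, CXCL8 and IL11 held the AP-1 motif, CXCL1 the NF-κB consensus and TLR4 neither, and LIF had no promoter. A match describes letters and was not tested as a binding site or against the expression differences.

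CXCL8, CXCL1, CXCL2 and CXCL3 lie in a cluster of chemokine genes on chromosome 4. In the RefSeq order 9 protein-coding genes run from CXCL8 to CXCL2, and 6 of them (CXCL6, PF4V1, PF4, PPBP, CXCL5 and CXCL3) stayed below log2 6 on all 6 arrays, with 5.50 as their highest level. PF4V1, PF4 and PPBP, platelet chemokines, were named after their values were seen. CXCL8 and CXCL1 were the genes of this row that fell in all 3 pairs.

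CXCL8 showed the lowest differences of the 10 genes. Its level was 7.56 in DMSO, 3.29 with vemurafenib, 7.68 with AT9283 and 3.48 in the combination at 6 h, and 7.85 in DMSO and 3.25 with vemurafenib at 16 h. All 3 arrays with vemurafenib were far below the floor and all 3 without it above, with no overlap. The level was 19.4-fold lower with vemurafenib at 6 h (log2 -4.28), 18.4-fold lower when AT9283 was present on both arrays (-4.20) and 24.2-fold lower at 16 h (-4.60). Among genes at the floor this was the difference of rank 2 from the lowest of 9095 at 6 h and of rank 4 of 9469 at 16 h. The sizes rest on values near background: with 16 added to each intensity before the log, CXCL8 was 7.96-fold lower at 6 h, 8.14-fold lower with AT9283 present and 9.66-fold lower at 16 h.

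CXCL8 has a second probe set, marked as cross-hybridizing, which lies where the 6 h values of the table sit on the wrong rows. As deposited it read 10.78 in DMSO and 10.71 with vemurafenib at 6 h, but 8.49 and 3.32 at 16 h. With the 6 h values put back in the other identifier order it read 8.27, 3.55, 8.39 and 3.31 for DMSO, vemurafenib, AT9283 and the combination. In that order its differences were -4.71 at 6 h and -5.08 with AT9283 present, beside -5.16 at 16 h, so it separated the arrays as the probe set used here did. Used as deposited, it would have given CXCL8 a 6 h difference of -0.08.

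CXCL1, also called GROα, fell too, but unlike CXCL8 it remained above the floor under the drug. Its level was 9.48 in DMSO, 6.42 with vemurafenib, 9.26 with AT9283 and 6.56 in the combination at 6 h, and 9.46 in DMSO and 7.82 with vemurafenib at 16 h. The arrays without vemurafenib lay within 0.22 of each other, and the vemurafenib array at 16 h lay between them and the 6 h arrays with the drug. CXCL1 was 8.35-fold lower at 6 h (-3.06), 6.50-fold lower with AT9283 present (-2.70) and 3.11-fold lower at 16 h (-1.64). The 16 h difference was 53.5% of that at 6 h on the log2 scale. CXCL1 has 1 probe set on this array, which is not marked as shared.

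IL11, a gp130 cytokine, had 9.48 in DMSO, 6.72 with vemurafenib, 9.61 with AT9283 and 6.93 in the combination at 6 h, and 9.07 and 6.00 in DMSO and vemurafenib at 16 h. The groups with and without the drug did not overlap, and the 16 h array with vemurafenib was the lowest. IL11 was 6.75-fold lower at 6 h (-2.75), 6.38-fold lower with AT9283 present (-2.67) and 8.44-fold lower at 16 h (-3.08). A second probe set, marked as shared, gave smaller differences of -1.54, -1.49 and -1.08. At 16 h both arrays lay below log2 6 on it.

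LIF, which maintains stem cells in culture and signals through LIFR and gp130, had 7.35 in DMSO, 5.27 with vemurafenib, 7.28 with AT9283 and 5.51 in the combination at 6 h, and 7.17 and 5.12 at 16 h. Its 3 arrays without vemurafenib were above the floor and its 3 arrays with the drug below. LIF was 4.24-fold lower at 6 h (-2.08), 3.42-fold lower with AT9283 present (-1.78) and 4.14-fold lower at 16 h (-2.05).

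TLR4 had 7.45 in DMSO, 3.73 with vemurafenib, 7.15 with AT9283 and 3.74 in the combination at 6 h, and 8.10 and 4.43 at 16 h. As for CXCL8 and LIF, the arrays with the drug lay below the floor. TLR4 was 13.2-fold lower at 6 h (-3.73), 10.6-fold lower with AT9283 present (-3.41) and 12.7-fold lower at 16 h (-3.67). With 16 added to each intensity these became 6.54-fold, 5.37-fold and 7.73-fold. Its 3 other probe sets had differences from -2.02 to -3.21 at 6 h, from -2.36 to -3.77 with AT9283 present and from -2.39 to -4.24 at 16 h, so all 4 gave a fall in each pair. The TLR4 probe sets are marked as shared or cross-hybridizing except the one with the smallest differences (-2.02, -2.36 and -2.39), which has the suffix _a_at. Both probe sets of CXCL8 are so marked, so CXCL8 cannot be read without such probe sets.

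**Figure D1:**
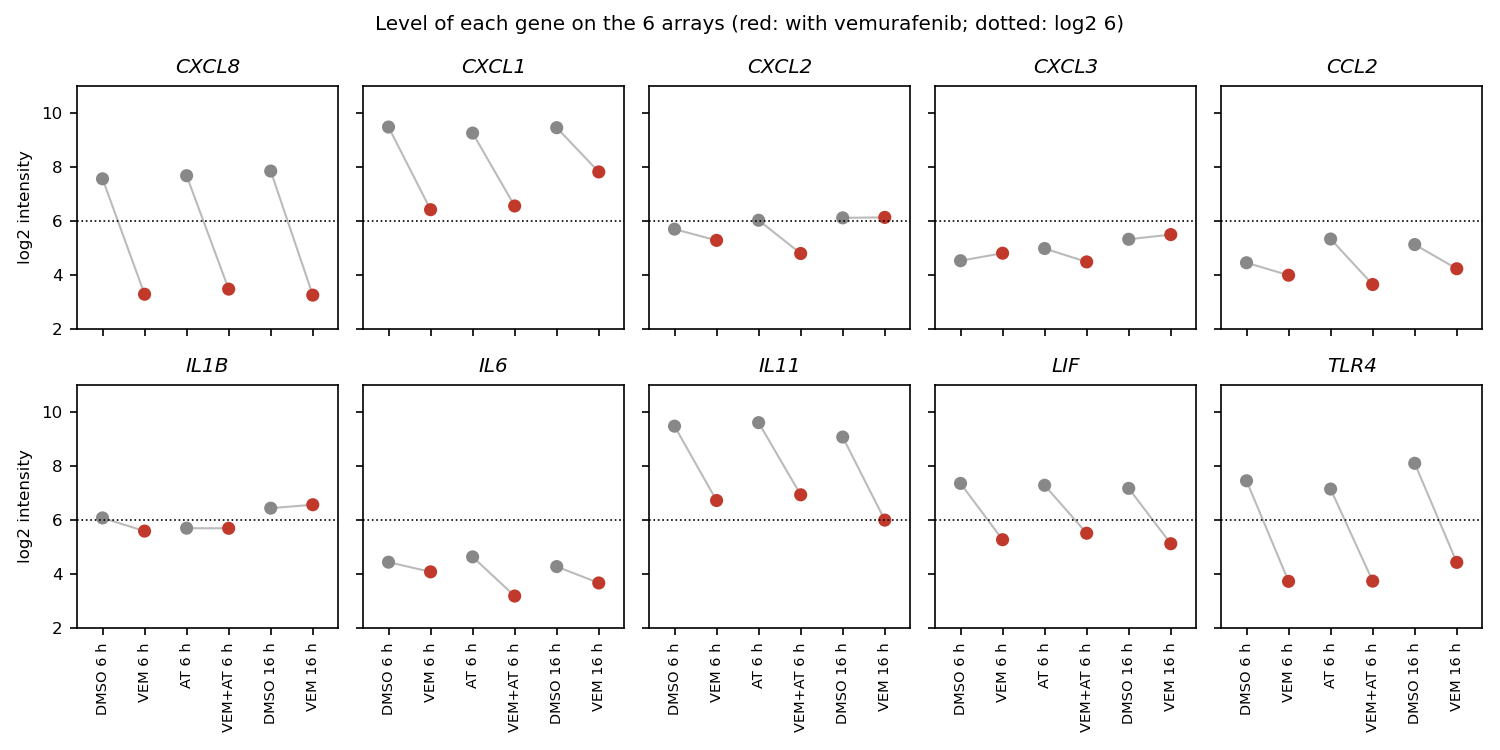
Log2 intensity of each of the 10 genes (vertical axis) on the 6 arrays (horizontal axis, 1 point per array); red points are arrays with vemurafenib (VEM), grey points arrays without it, AT is AT9283, lines join the arrays of a pair and the dotted line is log2 6. CXCL8, CXCL1, IL11, LIF and TLR4 drop in each pair, CXCL1 least at 16 h (9.46 to 7.82), while CXCL3, CCL2 and IL6 stay below the dotted line on all arrays.

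**Figure D2:**
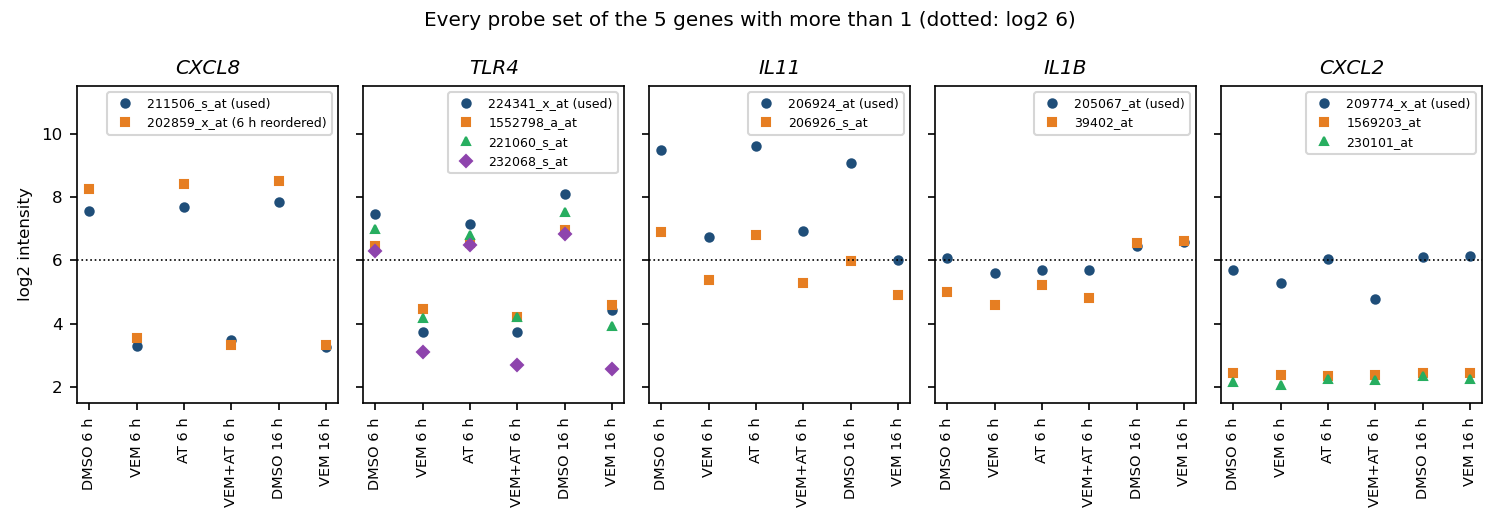
Log2 intensity (vertical axis) of every probe set of the 5 genes with more than 1, on the 6 arrays (horizontal axis, VEM vemurafenib, AT AT9283); 1 symbol per probe set, dotted line at log2 6, and the second CXCL8 probe set with its 6 h values put in the other order. Both CXCL8 and all 4 TLR4 probe sets separate the arrays with vemurafenib from those without, and of the 3 CXCL2 probe sets 2 stay near log2 2.

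The other 5 genes were near or below the floor. CXCL2 (GROβ) had 5.70 in DMSO, 5.28 with vemurafenib, 6.03 with AT9283 and 4.80 in the combination at 6 h, and 6.12 and 6.13 at 16 h. The groups overlapped, and the combination array was the lowest. CXCL2 passed the size rule in 1 pair, the combination against AT9283 (-1.23), on a probe set marked as cross-hybridizing, whereas its other probe sets, near log2 2 on every array, gave 0.028 and -0.052. CXCL3 (GROγ) had 4.53, 4.81, 4.98 and 4.48 at 6 h in the order DMSO, vemurafenib, AT9283 and combination, and 5.32 and 5.50 at 16 h. It overlapped between the groups, with vemurafenib differences of 0.28 at 6 h, -0.50 with AT9283 present and 0.17 at 16 h.

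CCL2, read from its only probe set, which is marked as shared, had 4.45, 3.99, 5.33 and 3.65 at 6 h in the same order. At 16 h it had 5.13 and 4.23. IL6 had 4.44, 4.08, 4.63 and 3.18 at 6 h, and 4.27 and 3.67 at 16 h. For both genes every array with vemurafenib was below every array without it, but no array reached the floor, so neither could pass the size rule as set. The same separation was seen for 12.2% of genes that reached the floor on any array. Its share among genes below the floor was not computed, so the separation of these 2 genes cannot be weighed. In the combination against AT9283 CCL2 passed the size rule with the floor at log2 5, and both genes passed it with no floor. This gave 7 and 8 of the 10 genes in place of 6, beside 1.85% of genes at the lower floor and 1.11% of all genes with no floor. The differences of CCL2 and IL6 were -0.46 and -0.36 at 6 h, -1.69 and -1.45 with AT9283 present, and -0.89 and -0.61 at 16 h.

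The level of IL1B was 6.08 in DMSO, 5.59 with vemurafenib, 5.70 with AT9283 and 5.69 in the combination at 6 h, and 6.44 and 6.56 at 16 h. The 2 arrays at 16 h were the highest, with or without the drug. The differences were -0.49 at 6 h, -0.00 with AT9283 present and 0.13 at 16 h. On a second probe set the 16 h DMSO array exceeded the 6 h DMSO array by 1.53, against 0.36 on the one used.

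The 10 genes were chosen with earlier results of these data known, so the counts below describe them and test nothing. Counted over all 10 genes, 5 fell and 0 rose with vemurafenib at 6 h, where 6 genes were at the floor and 2.14% of all genes at the floor fell. At 16 h the same 5 genes fell and 0 rose, 7 being at the floor, against 5.79% of all genes at the floor, or 7.94% with each array centred on its median, which counts 741 lower and 370 higher genes in place of 548 and 491. The array medians differed by 0.13 at 16 h, so differences there are that much lower relative to the median. In the combination against AT9283 6 fell, the 5 and CXCL2, against 1.97% of all genes, and against DMSO 5 fell, against 1.93%. The latter comparison shares its DMSO array with the first. The 5 genes CXCL8, CXCL1, IL11, LIF and TLR4 fell in all 3 pairs, as did 1.39% of the genes at the floor in each. The median difference of the 10 genes was -1.29 at 6 h, -1.27 at 16 h and -1.73 with AT9283 present, whereas that of all genes was 0.02, 0.00 and 0.03. At 6 h this median lies in a gap between LIF (-2.08) and IL1B (-0.49), so it does not describe a shift shared by the 10 genes. In bulk RNA fewer cells that express a gene and less of its RNA per cell cannot be told apart.

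**Figure D3:**
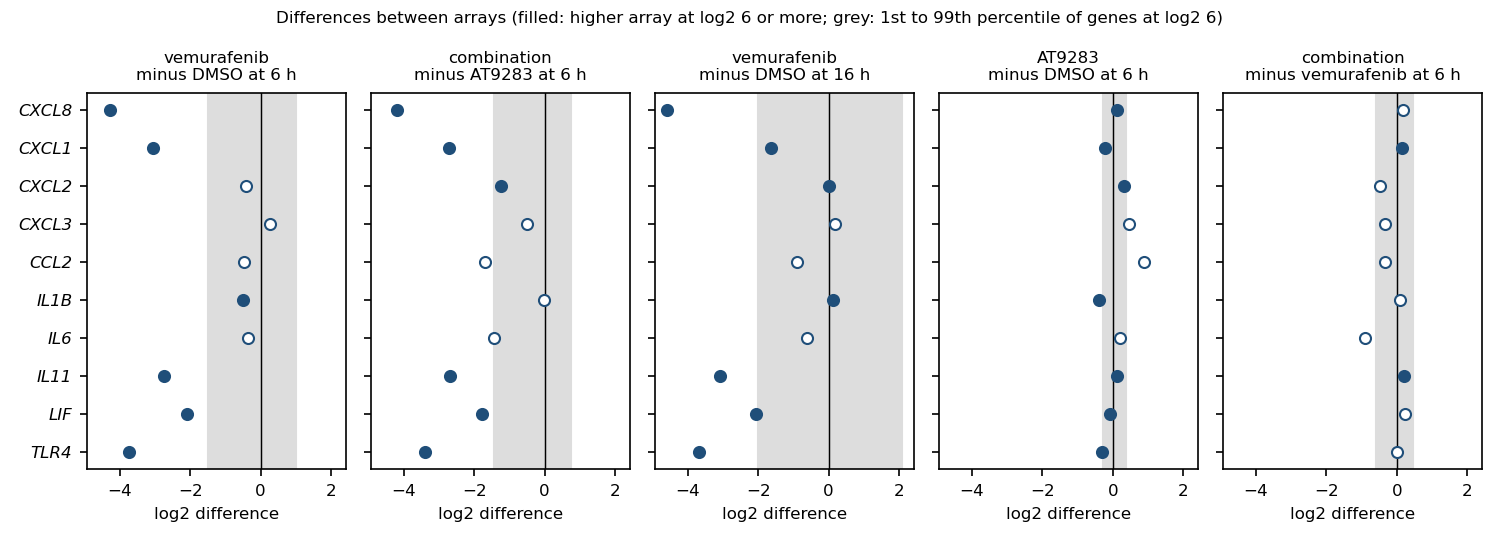
Log2 differences between arrays (horizontal axes) of the 10 genes (vertical axis) in 5 comparisons; filled points reached log2 6 on the higher array, open points did not, and the grey band spans the 1st to the 99th percentile of all genes at the floor. CXCL8, CXCL1, IL11, LIF and TLR4 lie left of the band in both 6 h vemurafenib pairs, and CXCL1 lies inside it at 16 h (-1.64). For AT9283 alone the filled point farthest from 0 is IL1B (-0.38, but 0.20 on its second probe set).

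The vemurafenib difference was then fitted over the 3 pairs with limma, with the pair as a block, on 9707 genes that reached log2 6 on at least 1 array, 7 of the 10 among them. The residual, with 2 degrees of freedom, is the change of the difference between the pairs and not the error between replicates, and nothing in the labels says whether the arrays came from separate cultures. At an adjusted p under 0.05 limma called 5 of the 7 genes lower and 0 higher, against 3.33% of all genes tested called lower. The estimate was -4.36 (SE 0.15, adjusted p = 0.00296) for CXCL8, -3.60 (SE 0.13, adjusted p = 0.00296) for TLR4 and -2.83 (SE 0.11, adjusted p = 0.00346) for IL11. LIF followed with -1.97 (SE 0.11, adjusted p = 0.00675) and CXCL1 with -2.47 (SE 0.30, adjusted p = 0.0321). The larger SE of CXCL1 goes with its smaller difference at 16 h. CXCL2 (-0.54, SE 0.27, adjusted p = 0.237) and IL1B (-0.12, SE 0.16, adjusted p = 0.607) did not pass.

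The calls of CXCL1 and LIF depended on single pairs. Without the DMSO and vemurafenib pair at 6 h, limma gave CXCL1 an adjusted p of 0.108 and LIF one of 0.0612, and it called 22 genes in all in place of 463. Without the AT9283 and combination pair CXCL1 had an adjusted p of 0.0809, and without the pair at 16 h CXCL2 passed as well (adjusted p = 0.0372). The fit without the pair at 16 h called 2844 genes, 29.3% of those tested, so the call says little about CXCL2. The directions and sizes held in these fits, with CXCL1 between -2.17 and -2.88 and LIF between -1.91 and -2.07. All 3 arrays with vemurafenib were below all 3 without it for 5 of the 7 genes tested, and for 12.2% of all genes that reached the floor on any array. These are the 5 called genes, and the call came from the same arrays, so the separation adds no support to it. CXCL8, LIF and TLR4 reached the floor only on arrays without the drug.

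AT9283 alone moved none of the 10 genes over the size rule. Of these 7 were at the floor, and 0.0224% of all genes at the floor passed in either direction. Of the 5 genes that fell with vemurafenib, TLR4 differed by -0.31, CXCL1 by -0.22, LIF by -0.07, CXCL8 by 0.12 and IL11 by 0.13. IL1B differed by -0.38 and CXCL2 by 0.33. Other probe sets gave IL1B 0.20, IL11 -0.12, CXCL2 -0.09 and 0.12, and TLR4 -0.19, 0.09 and 0.17. The highest difference was that of CCL2 at 0.88, on levels below the floor (4.45 and 5.33).

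Adding AT9283 to vemurafenib likewise moved none of the 10 genes over the rule relative to vemurafenib alone, where 0.322% of genes at the floor passed, all of them lower. Only CXCL1 and IL11 were at the floor in this comparison, with differences of 0.14 and 0.21, and CXCL8, LIF and TLR4 had 0.19, 0.24 and 0.01 on levels below it. IL6 had the lowest difference, -0.90, from 4.08 to 3.18. The vemurafenib difference with AT9283 present was 98.3% of that without it for CXCL8, 97.0% for IL11, 91.5% for TLR4, 88.2% for CXCL1 and 85.2% for LIF. No gene of the 10 at the floor changed its vemurafenib difference by 1 or more with AT9283, and 0.282% of all genes at the floor did. CCL2 and IL6, below the floor, changed by -1.22 and -1.09.

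From 6 h to 16 h, CXCL1 was the 1 gene of the 10 whose vemurafenib difference changed by at least 1, by 1.42 from -3.06 to -1.64, and 4.83% of all genes at the floor changed by as much in either direction. The level with vemurafenib went from 6.42 to 7.82, while the DMSO arrays differed by -0.02. The other called genes changed little, IL11 by -0.32, CXCL8 by -0.32, TLR4 by 0.06 and LIF by 0.03. The change of CXCL1 rests on 1 array at each point and was not tested. Without drug, no gene of the 10 passed the rule between 16 h and 6 h, where 0.276% of all genes at the floor did. TLR4 was higher by 0.65 at 16 h and IL11 lower by 0.40. No label says whether arrays of the 2 times were processed together, so time cannot be told apart from processing.

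The genes nearest to CXCL8 in pattern over the 6 arrays were IER3, SPRY2, DUSP4, DUSP6 and TLR4, by root mean square distance of log2 values after centring each gene (0.21, 0.23, 0.34, 0.40 and 0.52). Those nearest to TLR4 were SPRY2, DUSP4, TGFA, MAFF and IER3 (0.37, 0.37, 0.38, 0.40 and 0.42). IER3, SPRY2, DUSP4 and DUSP6 are induced by ERK signalling, TGFA encodes a ligand of the EGF receptor, and MAFF is a small MAF factor. All were searched among 9706 genes at the floor on at least 1 array. DUSP6, the check that vemurafenib acted, differed by -5.23 at 6 h, -4.96 with AT9283 present and -5.22 at 16 h, or -4.39, -4.18 and -4.43 with 16 added to each intensity. Of 14 ERK output genes 12 fell at 6 h, 12 with AT9283 present and 13 at 16 h, and none rose, with medians of -2.43, -2.40 and -3.61. This list too was chosen with earlier results of these data known.

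Other ligands of the same families were mostly below the floor. Of 18 other chemokines measured, 1 reached log2 6 on any array and 0 passed the rule in any of the 3 pairs. Of 22 other cytokines 5 reached the floor and 1 fell in each pair, IL24, a cytokine of the IL-10 family. IL24 had 7.07, 4.37, 6.95 and 4.29 at 6 h in the order DMSO, vemurafenib, AT9283 and combination, and 6.44 and 3.71 at 16 h. Its differences were -2.70, -2.66 with AT9283 present and -2.73 at 16 h (limma -2.70, SE 0.13, adjusted p = 0.00518), and 16 added to each intensity took its 16 h difference to -1.82. Without the DMSO and vemurafenib pair at 6 h limma gave IL24 an adjusted p of 0.0841. IL15, a cytokine of T and NK cells, rose by 1.18 at 16 h, but by 0.51 on its second probe set. The median difference of the 22 cytokines was -0.04 at 6 h, 0.05 with AT9283 present and -0.06 at 16 h.

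Receptors of the ligands passed the rule at 16 h. Of 13 receptors measured, with decoys among them, 5 reached the floor, 0 passed at 6 h, and 2 fell and 2 rose at 16 h. Among all genes at the floor 3.18% passed in either direction at 6 h and 10.97% at 16 h. More genes thus passed at 16 h on the whole array, and whether the receptors differ from it was not tested. IL6R and IL11RA, the specific chains for IL-6 and IL-11, rose by 1.73 and 1.52 at 16 h, after 0.43 and 0.30 at 6 h. OSMR and IL1RAP, subunits of the oncostatin M and IL-1 receptors, fell at 16 h (-1.23 and -1.11), after -0.93 and -0.82 at 6 h, and limma called both lower over the pairs (adjusted p = 0.0321 and 0.0364). Both limma calls were lost without the DMSO and vemurafenib pair at 6 h (adjusted p = 0.168 for OSMR and 0.211 for IL1RAP) and without the AT9283 and combination pair (0.0589 and 0.109). Other probe sets gave IL11RA 0.19 and IL1RAP -0.84 at 16 h, under the size rule, and with the mean over its probe sets limma gave IL1RAP an adjusted p of 0.0726. IL6ST, which encodes gp130 and was named after its values were seen, stayed between 10.50 and 10.62 on all arrays. CXCR2, a receptor of the neutrophil chemokines, stayed below the floor, at 2.51 or less. CXCR1 of the same list, named after its values were seen, lay just below the floor, between 5.80 and 5.92.

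Genes around TLR4 were taken from the same family and from its pathway. Of the 9 other Toll-like receptors 1 reached the floor and 0 passed the rule in any pair. Of 17 genes of TLR4 or IL-1 receptor signalling, LY96, CD14, LBP and IRF3 among them, 11 reached the floor. In each pair 1 of them fell, IRAK2, a kinase of the MYD88 complex. IRAK2 differed by -1.22 at 6 h, -1.12 with AT9283 present and -1.01 at 16 h (limma -1.12, SE 0.08, adjusted p = 0.0121), but its second probe set gave -0.14, 0.084 and -0.18. The limma call of IRAK2 was lost without the DMSO and vemurafenib pair at 6 h (adjusted p = 0.108) and without the AT9283 and combination pair (0.0589). The co-receptor gene CD14, a leukocyte marker as well, lay between 2.80 and 3.40 on all arrays. The medians of this list were -0.02 at 6 h, 0.01 with AT9283 present and 0.06 at 16 h.

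The NF-κB subunits, the IκB kinases and 2 IκB proteins (NFKBIB and NFKBIZ), 10 genes measured and 8 at the floor, had 0 genes over the rule in each pair, with medians of -0.11 at 6 h, -0.18 with AT9283 present and -0.09 at 16 h. Of 13 other NF-κB targets measured, 9 reached the floor. At 6 h 3 of them fell, PTX3, a soluble pattern recognition molecule (-3.05), TNFAIP3, the NF-κB inhibitor A20 (-1.96), and the adhesion molecule ICAM1 (-1.03). With AT9283 present PTX3 (-2.84) and TNFAIP3 (-1.95) fell, and at 16 h they fell too (-1.91 and -1.42) while SOD2, the mitochondrial superoxide dismutase, rose by 1.08. ICAM1 and SOD2 lay at the edge of the rule: the mean over its probe sets gave ICAM1 -0.78 at 6 h, and centring the arrays gave SOD2 0.95. The median of this list was -0.04 at 6 h, -0.27 with AT9283 present and 0.03 at 16 h. limma called PTX3 and TNFAIP3 lower (adjusted p = 0.0205 and 0.0144). Without the DMSO and vemurafenib pair at 6 h limma gave both an adjusted p of 0.0869, and without the AT9283 and combination pair it gave PTX3 one of 0.0537. PTX3, like CXCL1, had a smaller difference at 16 h than at 6 h.

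Among 9 measured regulators of AU-rich mRNA, the element that shortens the life of many cytokine transcripts, 1 passed the rule. ZFP36L2, which promotes the decay of such mRNA, fell in each pair, with -1.72 at 6 h, -1.64 with AT9283 present and -2.02 at 16 h (limma -1.79, SE 0.10, adjusted p = 0.0076), a limma call lost without the DMSO and vemurafenib pair at 6 h (adjusted p = 0.0693). limma also called DUSP1, a phosphatase of MAP kinases that was named after its values were seen (-0.68, SE 0.07, adjusted p = 0.0231). That call was lost without the same pair (adjusted p = 0.198), without the AT9283 and combination pair (0.113) and with the mean over its probe sets (0.0999).

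**Figure D4:**
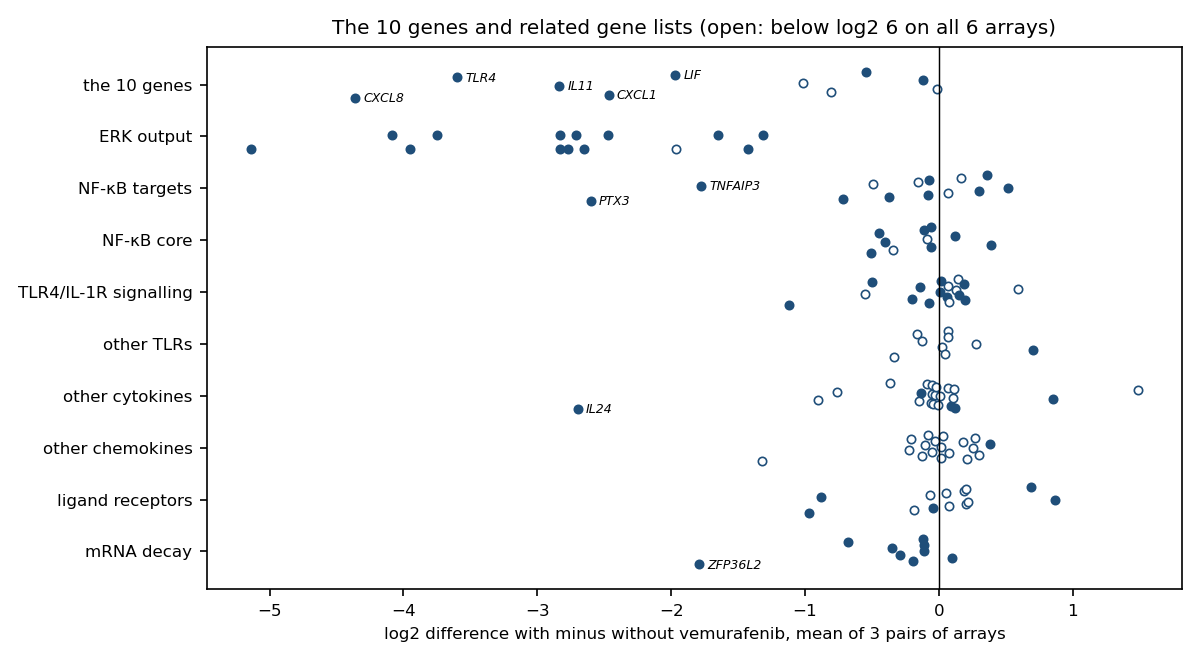
Mean log2 difference with minus without vemurafenib over the 3 pairs of arrays (horizontal axis) for the 10 genes and 9 related lists (rows; vertical scatter within a row carries no value); 1 point per gene, open where the gene is below log2 6 on all 6 arrays. The ERK output genes lie below -1, PTX3, TNFAIP3, IL24 and ZFP36L2 are the labelled genes outside the 10, and the genes of the NF-κB core and the other Toll-like receptors all lie within 1 of 0.

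The cell line and possible other cells were checked by marker lists. MITF lay between 8.63 and 9.66 and SOX10 between 8.32 and 9.14, whereas the pigment genes PMEL, MLANA and TYR were below the floor on all arrays. Of 6 leukocyte markers measured, 1 reached the floor on any array (LYZ, highest 6.50), PTPRC, which encodes the leukocyte antigen CD45, lay between 2.86 and 3.13, and the summed intensity of the list ranged from 140 to 185. Of 4 endothelial markers 0 reached the floor (summed intensity 78.3 to 92.2), and of 5 fibroblast markers 1 did (207 to 243).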

How the data were processed

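The 6 arrays were hybridised with labelled cRNA from total RNA. The deposited values are probe set intensities on the linear scale, made by the authors with RMA per the submitters' processing notes, which name no version. They were converted to log2 here. The table held 54675 probe sets, of which 41097 had 1 gene symbol in the platform annotation. In 6 blocks of rows (1118 probe sets, 2.04%) the 6 h values belonged to other rows: the DMSO arrays had an r of 0.455 there, 0.984 with the order restored and 0.992 elsewhere. These rows, 1102 of them in the 2 large blocks, and 62 control probe sets were left out. The 10 genes and the 13 gene lists (147 of 158 entries measured) were chosen with earlier results of these data known. From each list at most 4 genes over the size rule with the largest mean vemurafenib difference were named, and for CXCL8 and TLR4 the 5 nearest in pattern. limma 3.58.1 (R 4.3.3) was fitted to all 6 arrays with the array pair as a block and a trended prior, with Benjamini-Hochberg adjustment over all genes tested. The steps were tested on simulated data. There were 11 other settings of the size rule, and restoring the order was added after seeing the data. Depth does not apply to arrays, and their number limits the precision.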

Additional observations from a re-analysis of the deposited data

How the results depend on the processing

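The falls of CXCL1, LIF and TLR4 in the 3 pairs kept their direction and size rule call under every alternative that measured the gene. CXCL8 lost its 6 h calls with misaligned rows as deposited, and IL11 its 16 h call on its second probe set (-1.08, below the floor). The setting without shared or cross-hybridizing probe sets also left out those with the suffix _a_at. It measured 7 of the 10 genes, without CXCL8, CCL2 and TLR4, and 3 fell in the combination against DMSO and in each vemurafenib pair. Of all genes at the floor in that setting 2.42% fell at 6 h and 6.10% at 16 h. With AT9283 present 2.17% fell, and in the combination against DMSO 2.18%. Between the DMSO arrays 1 gene passed in place of 0 with the second probe set (IL1B), with rows as deposited (CXCL8) and at 1.5-fold (TLR4). The shares of all genes at the floor that passed in either direction there were 0.252%, 0.867% and 2.66%. On the second probe set CXCL2 in the combination against AT9283 turned to 0.028, as it did without shared probe sets, and IRAK2 turned to 0.084. Leaving out each pair in turn, limma called 3 to 6 of the genes in place of 5, and 22, 114 and 2844 of all genes in place of 463. With the mean over probe sets it called 297. With 16 added to each intensity the folds of CXCL8, TLR4, IL24 and DUSP6 shrank by over 1.5 times in each pair, and their calls held. With no floor IL6 passed in the combination against DMSO too, which gave 6 of the 10 genes, beside 1.09% of all genes that were lower. The cause of these changes was not tested. The pair of arrays is the block of the limma fit. The labels give no replicate numbers, so no other pairing was fitted.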

Other observations

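Of the genes of the lists other than the ERK output list, 5 were below the floor on all 6 arrays but had a difference beyond 1 in at least 1 pair, TSLP, CCL20, LY96, IL1A and PTGS2, all named after their values were seen. TSLP, an epithelial cytokine, had 2.81, 4.54, 2.78 and 3.30 at 6 h in the order DMSO, vemurafenib, AT9283 and combination, and 3.77 and 5.98 at 16 h. It was higher with vemurafenib in all 3 pairs, by 1.73 at 6 h, 0.52 with AT9283 present and 2.20 at 16 h. CCL20, which attracts cells with the receptor CCR6, had 4.59, 3.26, 4.52 and 3.82 at 6 h and 5.07 and 3.15 at 16 h, and was lower with vemurafenib in all 3 pairs (-1.33, -0.70 and -1.93). LY96, the MD-2 partner of TLR4, had 3.19, 3.42, 3.73 and 3.17 at 6 h and 3.20 and 5.32 at 16 h, so its 16 h difference of 2.11 rests on 1 array. IL1A, the other IL-1 cytokine, was lower in all 3 pairs, with -0.16 at 6 h, -1.01 with AT9283 present and -1.12 at 16 h, with 5.27 as its highest level. PTGS2, which encodes cyclooxygenase-2, had -0.04, -0.42 and -1.02, with 3.39 as its highest level. None of the 5 could pass the size rule.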
